A study of Mus musculus with 6 samples.

Results

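The miR-106b~25 cluster and the remaining paralogues of the miR-17 microRNAs were followed in small RNA libraries of mouse iBN cells with and without induction of PU.1. The members were all arms of 9 hairpins, namely miR-106b, miR-93 and miR-25 from an intron of Mcm7, miR-106a, miR-20b, miR-18b and miR-363 from the X chromosome, and miR-92b and miR-32, which lie apart from these clusters. They made up 18 of the 1915 mature microRNA names in the table, and each had a single entry. Of the 18, 11 passed the filter on low counts and were tested, 2 had too few reads, and 5 had 0 reads in all 6 libraries.

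Induced cells (n = 3 libraries) had been kept in 1000 ng/ml doxycycline for 72 hours, and uninduced cells (n = 3 libraries) were the control. Both groups were suspension cultures in medium with GM-CSF and fetal bovine serum, both carried the inducible system for PU.1, a transcription factor of myeloid and B cell development, and the labels describe them as granulocyte-macrophage progenitors. The sources used here give neither the promoter of the inducible gene nor the number of clones. Doxycycline given to cells that lack the inducible system was not analysed here. PU.1 itself is not measured by this assay. The labels number the libraries of each group as trials 1, 2 and 3 without stating separate cultures, so each p-value is set against a spread that may be technical.

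With 1 entry per name, the libraries held 8697384 to 13946613 reads. Values below are CPM, read counts scaled to library size with TMM factors. A read stands for a whole mature microRNA, so CPM needs no correction for length, but ligation and PCR favour some sequences, and levels of different microRNAs are compared only as reads. The 5 myeloid marker microRNAs summed to 91869 to 106214 CPM in induced and 81223 to 103788 CPM in uninduced libraries, and none was at 0. The 2 lymphoid markers summed to 23444 to 30830 CPM in induced and 30568 to 32827 CPM in uninduced libraries, and the 3 erythroid markers to 37.5 to 40.1 CPM in induced and 22.9 to 36.5 CPM in uninduced libraries. The erythroid miR-144-3p, the muscle miR-206-3p, the neural miR-124-3p and 4 of 6 embryonic stem cell markers had 0 reads. The sum of the 2 neural markers was therefore miR-9-5p alone. It had 0.914 to 1.46 CPM in induced and 0.222 to 0.458 CPM in uninduced libraries, without overlap. Groups also did not overlap for 27.6% of all tested microRNAs. At its low level miR-9-5p was probably removed by the filter on low counts, so that share may not apply to it. That it was not called therefore says nothing about a change. The 3 muscle markers summed to 0.112 to 0.367 CPM in induced and 0.214 to 0.275 CPM in uninduced libraries, and the 6 embryonic stem cell markers to 0.661 to 0.914 CPM in induced and 0.214 to 0.889 CPM in uninduced libraries. The liver marker miR-122-5p averaged 0.0922 CPM over the 6 libraries. The 4 epithelial markers summed to 78.9 to 99.2 CPM in induced and 31.4 to 38.9 CPM in uninduced libraries. Of these 4, 3 passed the edgeR test described below, against 6.10% of all tested. The 2 stromal markers summed to 109 to 168 CPM in induced and 162 to 201 CPM in uninduced libraries. The part of other cell types in the results below was not tested.

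MicroRNAs are cut from hairpins into short strands that guide Argonaute proteins to messenger RNAs, mainly through the seed, bases 2 to 8 from the 5′ end. The miR-17~92 cluster, its X-linked copy and the miR-106b~25 cluster arose by duplication. Their strands share a few seeds and repress cell cycle and apoptosis genes such as Cdkn1a and Bcl2l11, and the clusters are known for promoting proliferation of blood progenitors and lymphoma. The miR-106b~25 hairpins are processed from Mcm7, which encodes a subunit of the replicative helicase and is activated by E2F factors in dividing cells.

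The main strands of the members are shown with the strands of the miR-17~92 transcript Mir17hg they resemble, because their near identity bears on how reads can be assigned. Of the 18 members 17 had a mature sequence in the RefSeq table for GRCm38.p6. Seeds are in capitals, and the prefix mmu- (mouse) is left out after this. The first set shares the seed of miR-17-5p, and miR-17-5p and miR-20a-5p come from Mir17hg.

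mmu-miR-93-5p: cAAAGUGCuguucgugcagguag
mmu-miR-106b-5p: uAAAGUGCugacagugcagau
mmu-miR-106a-5p: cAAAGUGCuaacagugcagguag
mmu-miR-20b-5p: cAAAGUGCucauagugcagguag
mmu-miR-17-5p: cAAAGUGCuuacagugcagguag
mmu-miR-20a-5p: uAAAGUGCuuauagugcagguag

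The second set shares another seed, and miR-92a-3p is made from a hairpin in Mir17hg and from a copy on the X chromosome.

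mmu-miR-25-3p: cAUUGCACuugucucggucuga
mmu-miR-92b-3p: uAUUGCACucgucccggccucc
mmu-miR-32-5p: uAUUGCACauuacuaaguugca
mmu-miR-363-3p: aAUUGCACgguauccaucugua
mmu-miR-92a-3p: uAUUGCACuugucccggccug

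The last pair has a seed of its own.

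mmu-miR-18b-5p: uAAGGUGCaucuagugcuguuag
mmu-miR-18a-5p: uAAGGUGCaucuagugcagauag

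With 5′ ends aligned and positions counted from the 5′ end, miR-106a-5p differed from miR-17-5p by the single substitution U10A. miR-20b-5p differed from miR-20a-5p by U1C and U10C, miR-18b-5p from miR-18a-5p by A18U and A20U, and miR-92b-3p from miR-92a-3p by U10C and G21C over the shared length. The Mcm7 strands were further apart, with 3 substitutions in miR-106b-5p against miR-17-5p, 4 in miR-93-5p against miR-20a-5p and 3 in miR-25-3p against miR-92a-3p (U1C, C14U, C18U). The sources used here do not say whether mismatches were allowed, so small counts of a strand that is 1 or 2 bases from an abundant one are uncertain.

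In GRCm38, the mm10 assembly, the hairpins of the Mcm7 cluster lay within 498 bases of each other on the minus strand at chr5:138165737-138165818 (miR-106b), chr5:138165523-138165610 (miR-93) and chr5:138165321-138165404 (miR-25). All lay in intron 13 of the principal Mcm7 transcript of GENCODE, which has 15 exons, on the strand of the gene. An exon of another annotated Mcm7 transcript overlapped miR-93 and miR-25. The hairpins are shown with both mature arms in capitals.

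miR-106b: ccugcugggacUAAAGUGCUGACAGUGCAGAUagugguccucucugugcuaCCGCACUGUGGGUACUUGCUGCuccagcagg
miR-93: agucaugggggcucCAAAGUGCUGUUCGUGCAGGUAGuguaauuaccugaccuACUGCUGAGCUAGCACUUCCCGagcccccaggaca
miR-25: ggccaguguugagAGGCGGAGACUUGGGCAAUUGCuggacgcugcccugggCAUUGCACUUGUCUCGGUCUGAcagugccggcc

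The other hairpins were also on minus strands. miR-106a (chrX:52742503-52742567), miR-18b (chrX:52742331-52742413), miR-20b (chrX:52742113-52742192) and miR-363 (chrX:52741693-52741767) spanned 875 bases and lay in no annotated host gene. miR-92b (chr3:89227116-89227198) lay in no annotated gene, and miR-32 (chr4:56895229-56895298) in an intron of Tmem245.

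**Figure D1:**
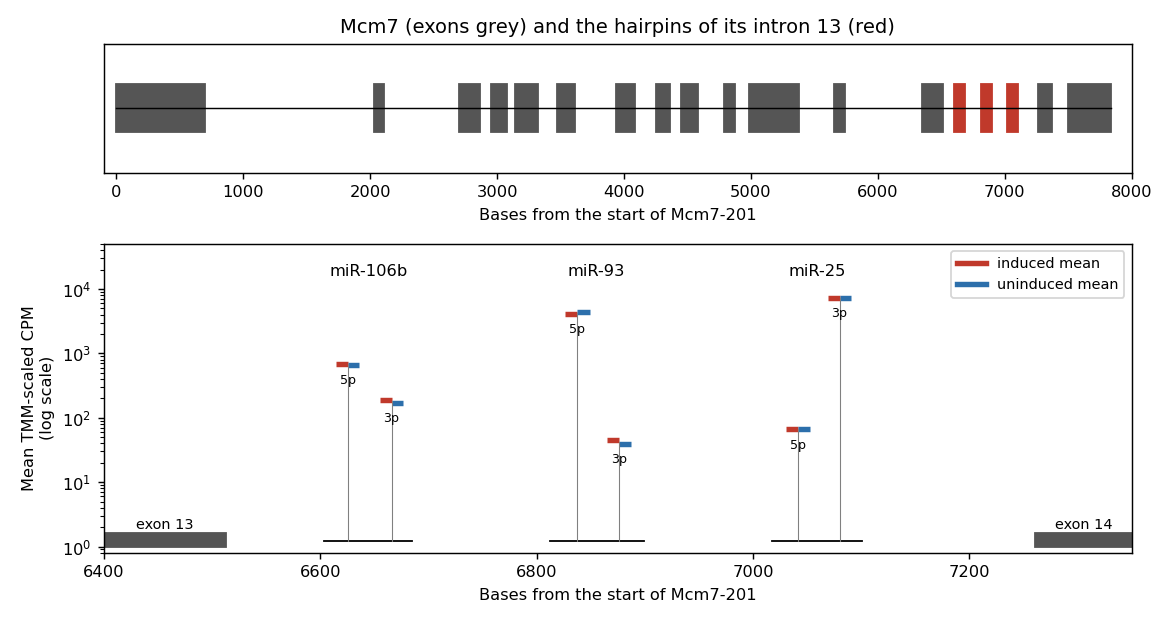
The upper panel shows Mcm7 with its exons and the hairpins of intron 13, in bases from the start of its principal transcript, and the lower panel the mean CPM (log axis) of each arm in induced and uninduced libraries at the arm's place in the hairpin. The main arms lie at 7222 CPM induced and 7205 CPM uninduced (miR-25-3p), 4087 and 4365 CPM (miR-93-5p) and 685 and 660 CPM (miR-106b-5p), so the hairpins of the same intron differ in reads far more than the groups do.

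No member passed the test between induced and uninduced cells. Of 11 members tested 0 were higher and 0 lower by the edgeR quasi-likelihood test (adjusted p at 0.05 over all tested), against 6.10% of all 525 microRNAs tested (32, of which 18 were higher and 14 lower). At 6.10% fewer than 1 call would fall among 11 microRNAs, so the count of 0 says little by itself. At an unadjusted p under 0.05 there were 0 of 11 members, against 20.8% of all tested, and DESeq2 and limma-voom also called 0 of the 11, against 7.05% and 4.19%. With the trial as a block 0 of the 11 passed, against 21.7% (56 higher, 10.7%, and 58 lower, 11.0%), and 0 had an unadjusted p under 0.05, against 37.1%. The same direction in all 3 trials was seen in 5 of 11 members, against 58.5% of all tested. The members' log2 fold changes, induced over uninduced, lay between -0.40 and 0.21 with a median of 0.00, beside a median of 0.02 over all tested. The intervals widen toward the rarer members and are given with each. In these bulk libraries, fewer cells with a microRNA and less of it per cell cannot be told apart.

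The main strands of the Mcm7 cluster were abundant in both groups. miR-25-3p, which represses apoptosis and cell cycle inhibitor genes and ranked 20th of all names by mean CPM, had 6842, 8595 and 6228 CPM in induced libraries of trials 1, 2 and 3 and 7731, 7436 and 6448 CPM in uninduced ones. The groups overlapped, with the highest and the lowest value both in induced libraries. Its log2 fold change was 0.00 (SE 0.14, edgeR adjusted p = 0.991), with a 95% interval of 0.809 to 1.24 as a fold. Its sign turned negative under 6 of the 8 other fits of all libraries, between -0.01 and -0.0026, so no direction is given for it.

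miR-93-5p, which shares its seed with miR-17-5p and ranked 36th, had 4076, 4484 and 3700 CPM in induced libraries and 4497, 4514 and 4084 CPM in uninduced ones. It was lower in the induced library of each trial, although the groups overlapped, since induced trial 2 exceeded uninduced trial 3. The log2 fold change was -0.10 (SE 0.11, edgeR adjusted p = 0.681, fold interval 0.786 to 1.11).

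miR-106b-5p, the first hairpin's main strand and a repressor of Cdkn1a, ranked 81st with 746, 702 and 609 CPM in induced libraries and 715, 671 and 595 CPM in uninduced ones. In both groups trial 1 was highest and trial 3 lowest, and the groups overlapped. The log2 fold change was 0.05 (SE 0.13, edgeR adjusted p = 0.848, fold interval 0.842 to 1.28).

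The passenger strands of the cluster, the arms retained less often, were quantified as well. miR-106b-3p had 187, 202 and 178 CPM in induced libraries and 174, 168 and 176 CPM in uninduced ones. It was the only member whose groups did not overlap, 1 of 11 against 27.6% of all tested, and it did not pass, with a log2 fold change of 0.13 (SE 0.12, edgeR adjusted p = 0.598, fold interval 0.906 to 1.33). miR-93-3p had 52.2, 38.9 and 44.8 CPM in induced libraries and 40.5, 39.1 and 39.9 CPM in uninduced ones. Its uninduced values lay close together while the induced ones were spread on both sides of them. The log2 fold change was 0.19 (SE 0.15, edgeR adjusted p = 0.534, fold interval 0.9 to 1.44). miR-25-5p had 75.0, 51.9 and 71.7 CPM in induced libraries and 74.0, 52.1 and 75.5 CPM in uninduced ones, with trial 2 lowest in both groups. Its log2 fold change was -0.02 (SE 0.20, edgeR adjusted p = 0.961, fold interval 0.727 to 1.34).

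Summed over its 6 arms, the Mcm7 cluster had 12294 CPM ± 1640 in induced and 12510 CPM ± 962 in uninduced libraries (SD, n = 3 each), between 1.06% and 1.38% of a library's reads. The sum of the cluster is given as a description with no test.

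**Figure D2:**
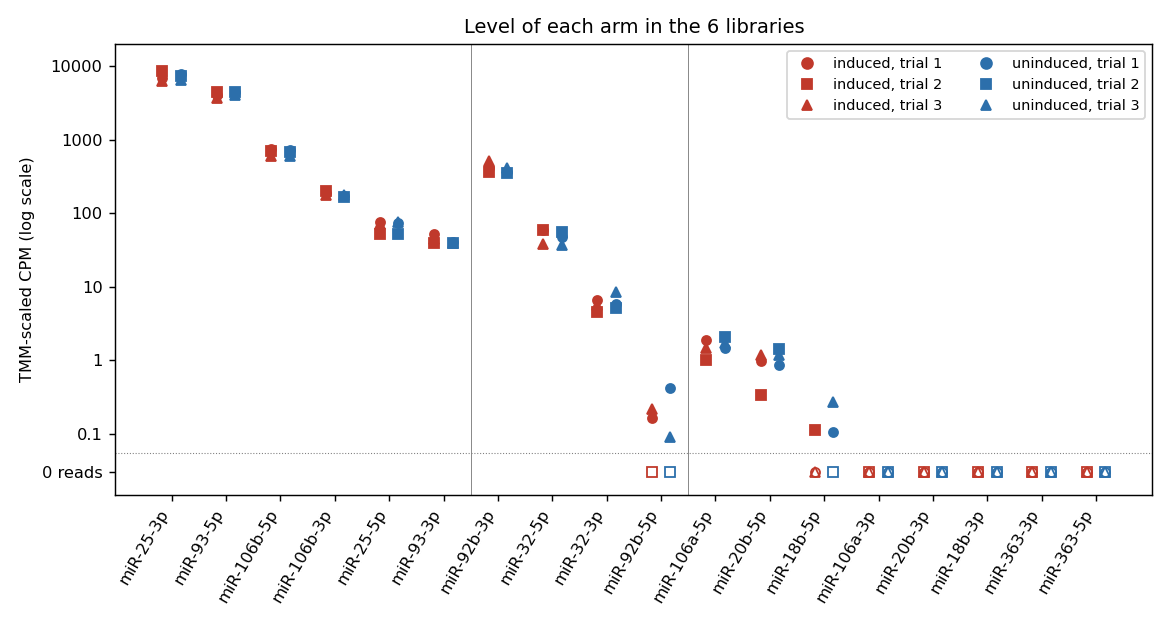
TMM-scaled CPM (log axis) of all 18 arms in the 3 induced (red) and 3 uninduced (blue) libraries, with a symbol for each trial and open symbols for libraries with 0 reads. From left to right stand the Mcm7 cluster, miR-92b with miR-32, and the X-linked paralogues, which reach at most 2.11 CPM. Red and blue points lie at similar heights for the Mcm7 cluster, miR-92b-3p and miR-32. The rarest arms with reads scatter in both groups, as for miR-20b-5p in trial 2 (0.336 CPM induced, 1.44 CPM uninduced).

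The weakly expressed paralogues fell into a middle and a nearly silent class. miR-92b-3p, which shares the seed of miR-25-3p, had 413, 361 and 519 CPM in induced libraries and 364, 349 and 407 CPM in uninduced ones. It was higher in the induced library of each trial, by log2 differences of 0.18, 0.05 and 0.35, but the groups overlapped. Its log2 fold change of 0.21 (SE 0.16, fold interval 0.903 to 1.47) was the highest among the members, with an edgeR adjusted p of 0.508, and 0.139 with the trial as a block. When single libraries were left out, the log2 fold change was between 0.02 (without induced replicate 3, its highest value) and 0.31 (without induced replicate 2).

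miR-32-5p, another strand with that seed, had 59.2, 58.6 and 37.9 CPM in induced libraries and 47.1, 54.8 and 37.5 CPM in uninduced ones. Trial 3 was lowest in both groups, and the groups overlapped. The log2 fold change was 0.16 (SE 0.21, edgeR adjusted p = 0.711, fold interval 0.806 to 1.55). Its passenger strand miR-32-3p had 6.64, 4.48 and 5.65 CPM in induced libraries and 5.87, 5.11 and 8.42 CPM in uninduced ones. The log2 fold change of miR-32-3p was -0.21 (SE 0.25, edgeR adjusted p = 0.681, fold interval 0.588 to 1.27). When single libraries were left out, it was between -0.34 (without induced replicate 1 or uninduced replicate 2) and 0.03 (without uninduced replicate 3). miR-92b-5p, the passenger strand of miR-92b, was not tested, with 2, 0 and 3 reads in induced and 4, 0 and 1 reads in uninduced libraries.

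The X-linked paralogues were barely detected. miR-106a-5p, the X-linked copy of miR-17-5p, had 23, 9 and 20 reads in induced libraries (1.91, 1.01 and 1.47 CPM) and 14, 19 and 19 reads in uninduced ones (1.49, 2.11 and 1.74 CPM). The groups overlapped, and trials 1 and 2 went opposite ways. The log2 fold change of -0.25 (SE 0.31, edgeR adjusted p = 0.681) had a fold interval of 0.515 to 1.37. It was between -0.47 (without induced replicate 1) and -0.09 (without induced replicate 2) when single libraries were left out.

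miR-20b-5p, the copy of miR-20a-5p, had 12, 3 and 16 reads in induced libraries (0.997, 0.336 and 1.18 CPM) and 8, 13 and 13 reads in uninduced ones (0.854, 1.44 and 1.19 CPM). Its lowest value was the 3 reads of induced replicate 2. The log2 fold change with all libraries was -0.40 (SE 0.43, edgeR adjusted p = 0.668), and it was between -0.75 (without induced replicate 3) and -0.10 (without induced replicate 2) when single libraries were left out. Its fold interval of 0.389 to 1.48 was the widest among the members.

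miR-18b-5p had 0, 1 and 0 reads in induced and 1, 0 and 3 reads in uninduced libraries. The ratio of its summed reads per total was 0.215, with an exact 95% interval of 0.00436 to 2.17 that covers counting error only. miR-363-3p, miR-363-5p and the 3p arms of miR-106a, miR-20b and miR-18b had 0 reads in every library. A count of 0 over a group allows up to 0.0872 CPM in induced and 0.101 CPM in uninduced cells, taking 3 counts over the group as the limit.

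The X-linked cluster also holds copies of the miR-19b and miR-92a hairpins, whose main strands cannot be told from those of Mir17hg. miR-92a-3p has 2 entries, of 4798875 and 2089453 reads, and the sources used here do not say which hairpin each stands for. The passenger strands of the X-linked copies, miR-19b-2-5p and miR-92a-2-5p, had 0 reads in all 6 libraries. The matching Mir17hg strands miR-19b-1-5p and miR-92a-1-5p had 285 and 42476 reads in all.

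Summed over 8 arms, the X-linked paralogues had 2.34 CPM ± 0.772 in induced and 3.07 CPM ± 0.562 in uninduced libraries (SD, n = 3 each). The Mcm7 cluster summed to 4120, 9656 and 4097 times that level in induced libraries and to 5388, 3621 and 3563 times that level in uninduced ones. The value of 9656 came from induced replicate 2, where miR-106a-5p and miR-20b-5p together had 12 reads. miR-92b and miR-32 summed to 489 CPM ± 69.5 in induced and 427 CPM ± 23.4 in uninduced libraries (SD, n = 3 each), and the Mcm7 cluster stood 19.3 to 33.2 times higher across the libraries. These levels are descriptions with no test.

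To place the X-linked reads beside their near-identical counterparts, reads were divided within each library, which makes the scaling irrelevant. miR-106a-5p had 0.101%, 0.0555% and 0.0696% of the reads of miR-17-5p in induced libraries and 0.0684%, 0.0911% and 0.0775% in uninduced ones. miR-20b-5p had between 0.0246% and 0.081% of the reads of miR-20a-5p across the libraries. For both the counts were at most 0.101% of a strand that differs by 1 or 2 bases, and what part of them came from the abundant strand was not tested. Of the strands from outside the X chromosome, miR-92b-3p had 0.447% to 0.689% of the reads of miR-92a-3p. miR-32-5p, which is not near-identical to miR-92a-3p (10 substitutions over the shared length), had 0.0503% to 0.0794% of its reads. None of these 4 ratios differed between groups by an exact two-sided permutation test over the 6 libraries (p from 0.5 to 0.8, adjusted p of 0.8 for each). However, 3 libraries against 3 cannot give a p below 0.1.

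Strand choice differed between the hairpins, and a difference between the groups was not shown. The 5p arm held 78.3% ± 1.42 of miR-106b reads in induced and 79.2% ± 1.75 in uninduced libraries, and 98.9% ± 0.217 of miR-93 reads in induced and 99.1% ± 0.0559 in uninduced libraries (SD, n = 3 each). In miR-25 the order was turned, with 99.1% ± 0.296 on the 3p arm in induced and 99.1% ± 0.231 in uninduced libraries (SD, n = 3 each). miR-92b, of the same seed, also kept its 3p arm, with 26255 reads there and 10 on the 5p arm. miR-32 kept its 5p arm, with 89.9% ± 2.94 in induced and 87.4% ± 5.08 in uninduced libraries (SD, n = 3 each), and in both groups trial 3 had the lowest share. The log2 ratio of 5p to 3p reads differed by -0.27 for miR-93 and by 0.34 for miR-32, induced minus uninduced, and by -0.08 for miR-106b, with exact permutation p of 0.3, 0.5 and 0.6 (each adjusted to 0.9 over 5 hairpins). With 3 libraries against 3 this test cannot give a p below 0.1, so it could not decide whether strand choice changed. The miR-93 ratio was lower and the miR-32 ratio higher in the induced library of each trial.

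Among neighbours within the Mcm7 intron, miR-93-5p had 5.46, 6.39 and 6.08 times the reads of miR-106b-5p in induced libraries and 6.29, 6.73 and 6.86 times in uninduced ones. The induced value was the lower one in each trial, but the groups overlapped. The log2 ratio differed by -0.15 (exact permutation p = 0.2, adjusted p = 0.6 over 3 ratios). miR-25-3p had 1.58 to 1.92 times the reads of miR-93-5p across the libraries.

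**Figure D3:**
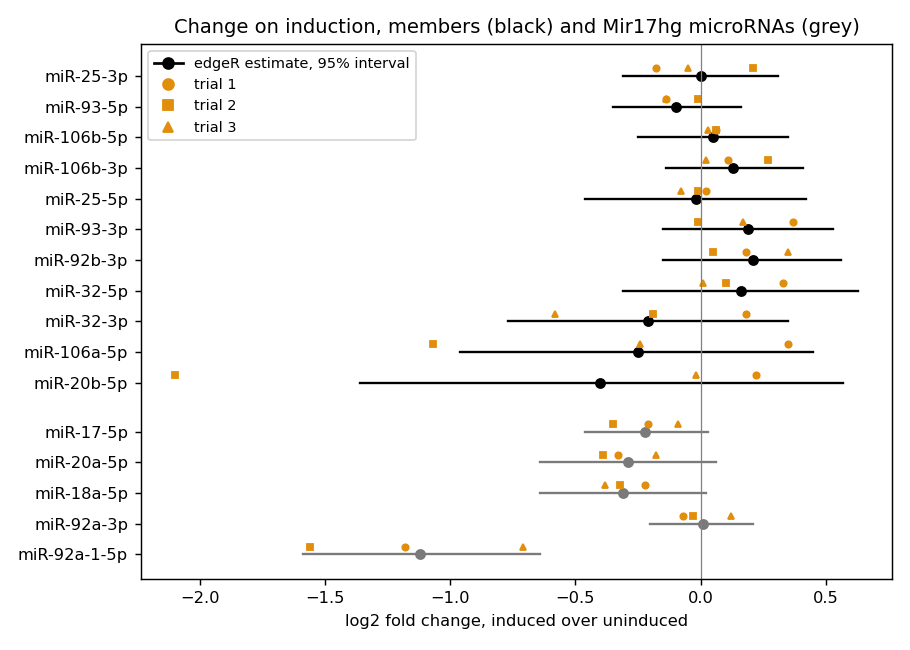
Log2 fold changes, induced over uninduced, of the 11 tested members (black) and 5 Mir17hg microRNAs (grey), as the edgeR estimate with its 95% interval and as the difference within each trial (orange). Every member's interval includes 0 and widens toward the rare miR-106a-5p and miR-20b-5p, while that of miR-92a-1-5p lies between -1.59 and -0.64.

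Mir17hg, the most similar cluster, was examined as a list of 14 arms, of which 12 were tested and the X-linked miR-19b-2-5p and miR-92a-2-5p were not detected. Of the 12, 0 were higher and 1 was lower, against 3.43% and 2.67% of all tested, and 11 did not pass. The arm that fell was miR-92a-1-5p, a passenger strand, with 479, 293 and 513 CPM in induced libraries and 1087, 863 and 838 CPM in uninduced ones (log2 fold change -1.12, SE 0.21, edgeR adjusted p = 0.0139). The call was lost without uninduced replicate 1. With the trial as a block 5 of the 12 were lower, against 11.0% of all tested, including miR-20a-5p (-0.30, edgeR adjusted p = 0.018) and miR-18a-5p (-0.31, edgeR adjusted p = 0.0181). The median log2 fold change of the list was -0.23, that of the Mcm7 cluster 0.03.

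Whether the clusters differed was tested through the ratio of counterparts in each library. miR-106b-5p had 39.6%, 38.6% and 28.8% of the reads of miR-17-5p in induced libraries and 32.7%, 28.9% and 26.5% in uninduced ones. The share was higher in the induced library of each trial, yet the groups overlapped because of trial 3. The log2 ratio differed by 0.27 (exact permutation p = 0.3, adjusted p = 0.75 over 3 ratios).

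miR-93-5p had 3.05, 3.29 and 2.00 times the reads of miR-20a-5p in induced libraries and 2.68, 2.53 and 1.95 times in uninduced ones. This ratio too was higher in the induced library of each trial, with a log2 difference of 0.20 (exact permutation p = 0.5, adjusted p = 0.75). With 3 trials, a sign-flip permutation over trials cannot give less than 0.25, the value it gave for both ratios. miR-25-3p had 8.27% to 11.2% of the reads of miR-92a-3p, a log2 difference of -0.01 (exact permutation p = 0.9), which was 0.04 when the entries of miR-92a-3p were summed. A difference between the Mcm7 and Mir17hg strands on induction was thus not shown, at a design whose smallest p is 0.1.

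**Figure D4:**
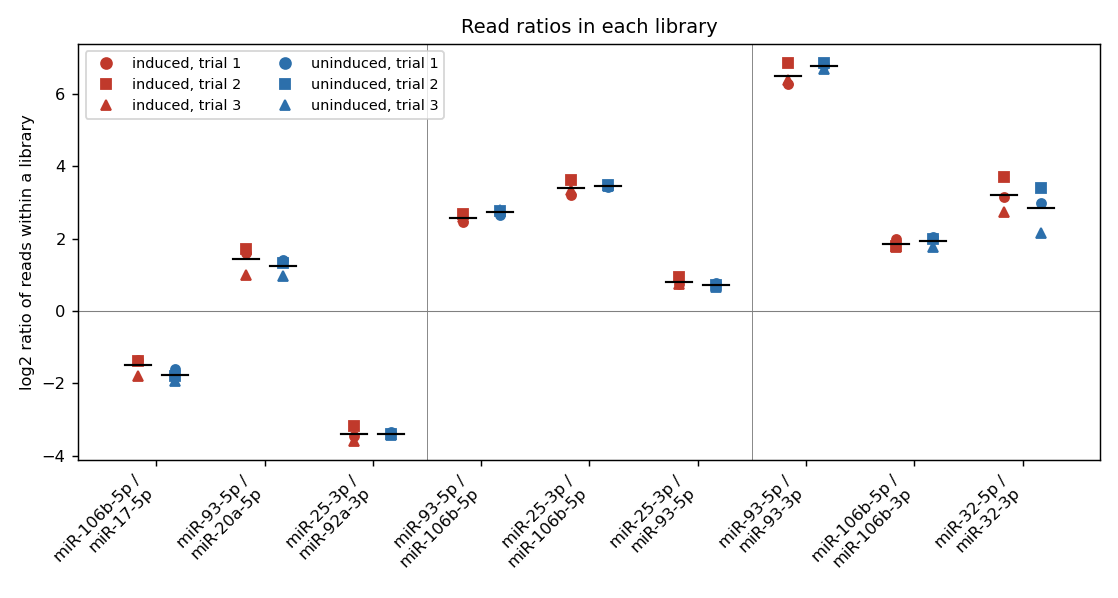
Log2 ratios of reads within each induced (red) and uninduced (blue) library, with a symbol for each trial and black bars for group means. The left set holds Mcm7 strands over Mir17hg counterparts, the middle set neighbours in the Mcm7 intron, and the right set 5p over 3p arms, and in each pair the groups overlap.

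Grouped by seed, the Mcm7 cluster supplied most reads of the miR-17-5p seed and few of the miR-25-3p seed. miR-93-5p made up 49.7% ± 4.50 of the reads with the miR-17-5p seed in induced and 47.8% ± 2.25 in uninduced libraries, and miR-106b-5p 8.34% ± 0.957 in induced and 7.23% ± 0.641 in uninduced libraries (SD, n = 3 each). With miR-106a-5p and miR-20b-5p, which reached at most 0.0238% each, the members held 51.9% to 62.0% of that seed group in every library, and miR-17-5p and miR-20a-5p held the rest. miR-6383, the remaining name with the seed, had 0 reads.

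The whole seed group summed to 8043, 8370 and 8270 CPM in induced libraries and 9080, 9292 and 9024 CPM in uninduced ones. The groups did not overlap, with a log2 ratio of the means of -0.15. Groups also did not overlap for 27.6% of all tested microRNAs. Within the sum they did not overlap for miR-17-5p, but did for miR-20a-5p and the members miR-93-5p and miR-106b-5p. This sum is a description with no test, and miR-17-5p and miR-20a-5p, with -0.22 and -0.29 on the log2 scale (edgeR adjusted p = 0.304 and 0.326), are part of it.

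In the other seed group, miR-92a-3p held 89.5% to 91.7% of the reads, miR-25-3p 7.59% to 10.0%, miR-92b-3p 0.406% to 0.632% and miR-32-5p 0.0462% to 0.0723%. miR-363-3p and the stem cell strand miR-367-3p had 0 reads. miR-92a-3p has 2 unequal entries, of which the larger was used, and the smaller held 39.7% to 49.4% of its reads, so these shares depend on how its reads were assigned. For the seed of miR-18a-5p, miR-18b-5p gave at most 0.0256% of a library's reads in its group.

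**Figure D5:**
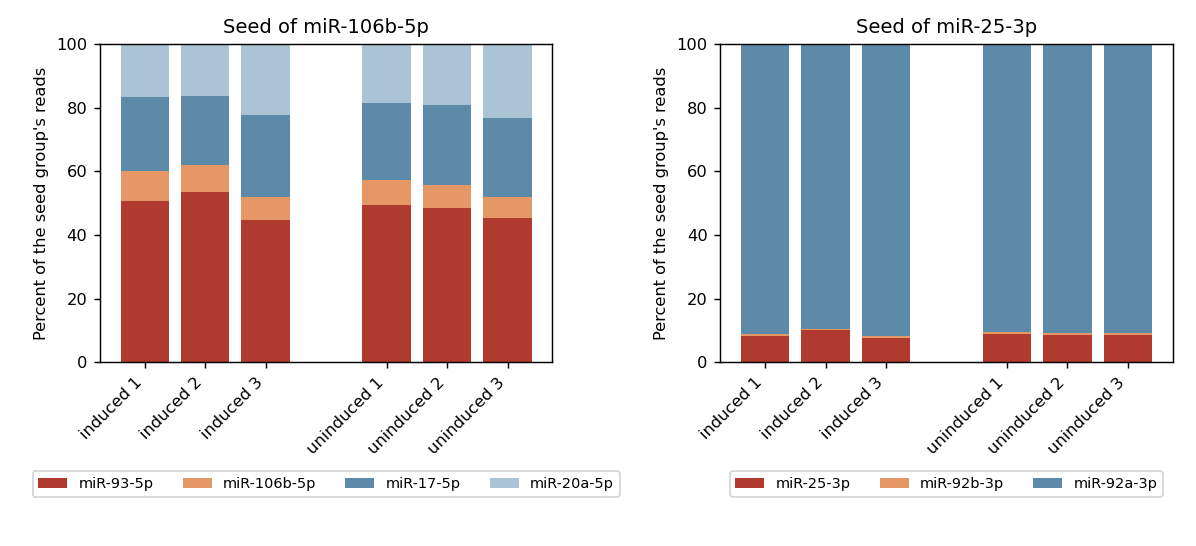
Stacked bars of the share of reads (percent) that each microRNA gives to the seed group of miR-106b-5p (left) and of miR-25-3p (right) in each library. The members in red and orange, miR-93-5p with miR-106b-5p, hold 51.9% to 62.0% on the left, while miR-92a-3p in blue holds 89.5% to 91.7% on the right.

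The embryonic stem cell clusters miR-290 to miR-295 and miR-302, most of whose main strands carry a related seed shifted by a base, were nearly absent. Of their 26 arms, 3 had reads, with 36 for miR-295-3p, 5 for miR-294-3p and 4 for miR-292b-5p in all libraries together, and they were not tested.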

How the data were processed

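Small RNA was sequenced from 6 libraries made with the Illumina TruSeq small RNA kit from total RNA, per the labels' protocols. The tools named in the submitters' processing notes were Trim Galore 0.4.0 and DESeq2 2.1.8.0 (as written there), with the build mm10, and the design text names alignment to miRBase. The sources used here name no counter or miRBase release and no rule for mismatches or multiple matches. The authors deposited raw read counts per mature microRNA and precursor. They also deposited CPM values, which equal counts over the column total within 0.005 and were not used in tests.

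Of several entries with a name, that with most reads was used (2061 entries, 1915 names). The main test was edgeR 4.0.16, run in R 4.3.3 (TMM, filterByExpr, robust glmQLFit, glmQLFTest, two-sided, Benjamini-Hochberg over 525 microRNAs). DESeq2 1.42.0 and limma 3.58.1 (voom) were alternatives. Ratios used log2 of reads plus 0.5 and exact permutation tests in scipy 1.17.1. The fit by group alone was also run on simulated counts drawn with the spread of these data and no trial effect. That run cannot assess the effect of trials, and no result here rests on it. No molecular identifiers are described. The edgeR intervals include the spread among libraries of a group, while the interval of the read ratio of miR-18b-5p and the limits for 0 reads cover counting error only. A count of 0 reads in a library allows up to 0.215 to 0.345 CPM. Libraries of a group differed beyond sampling noise (chi-square over its degrees of freedom at least 114).

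After subtraction of group means, same-numbered libraries of the groups correlated by 0.326, 0.45 and 0.526 across microRNAs. Differently numbered libraries were not compared in this way, so pairing by trial was not tested. The main test used the group alone, and the fit with the trial as a block is an alternative. The members, lists, tests and the rule for named microRNAs (every member, its Mir17hg counterparts, called Mir17hg arms and the markers) were chosen with earlier results of these data known. Embryonic stem cell arms with reads were named after their values were seen. Sequences are from RefSeq (GRCm38.p6) and gene models from GENCODE M21.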

Additional observations from a re-analysis of the deposited data

How the results depend on the processing

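No member passed in any of the 14 alternative fits, where the lowest adjusted p was 0.139. Over all tested microRNAs the count of 32 became 114 with the replicate block (56 higher, 58 lower) and 12 to 41 when single libraries were left out (8 to 20 higher, 4 to 21 lower). The count lower was 8 with library totals only, 24 with no filter and 9 with limma-voom. In the Mir17hg list the call of 1 became 5 with the block, 2 with no filter and 0 (without uninduced replicate 1) to 2 without single libraries. The cause was not tested. Of 154 combinations of member and fit, 15 changed sign. For miR-25-3p these were -0.01 with RLE factors, DESeq2, limma-voom and the block, -0.004 with no filter, -0.0026 with summed entries, and -0.15 to 0.06 without single libraries. miR-25-5p had 0.0027 with library totals and -0.16 to 0.11 without single libraries, miR-106b-5p -0.02 to 0.09 and miR-32-3p -0.34 to 0.03. Among log2 ratios, induced minus uninduced, without single libraries, miR-25-3p over miR-92a-3p had -0.13 to 0.08 (0.04 with summed entries), miR-106a-5p over miR-17-5p -0.32 to 0.09, miR-20b-5p over miR-20a-5p -0.57 to 0.15, miR-25-3p over miR-106b-5p -0.17 to 0.04, and 5p over 3p -0.21 to 0.28 for miR-25, -0.98 to 0.55 for miR-92b and -0.01 to 0.62 for miR-32. The block changed no call of a member. Depth limits miR-106a-5p, miR-20b-5p, miR-18b-5p and miR-92b-5p, which had 104, 65, 5 and 10 reads in all.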

Other observations

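The members varied more among induced than among uninduced libraries. The coefficient of variation of TMM-scaled CPM was larger in the induced group for 9 of 11 tested members, with medians of 18.6% induced and 9.33% uninduced. Over all tested microRNAs with reads in both groups it was larger in the induced group for 48.2% (252 of 523), with medians of 14.9% and 15.9%. Most tested arms of the Mir17hg list also had the larger value in the induced group, so the pattern was not particular to the members. Examples were miR-17-5p (7.93% induced, 2.96% uninduced), miR-20a-5p (18.9% and 11.7%) and miR-92a-1-5p (27.6% and 14.8%). Others went the other way, among them miR-18a-5p (10.2% and 15.6%) and miR-92a-3p (1.42% and 6.85%). The member miR-93-3p had 14.7% in the induced and 1.69% in the uninduced group. The larger spread in the induced group was noticed after the values were seen, rests on 3 libraries per group, and has no test. The members share hairpins and libraries, so they are not independent.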
